A study of Homo sapiens with 8 samples.

Results

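The metalloproteinases of the MMP, ADAM and ADAMTS families and their inhibitors, the TIMPs, were examined in epithelial prostate cancer cells, in mesenchymal lines derived from them and in 2 of those lines after silencing of ZEB1. Members were taken by symbol, as MMP, ADAM, ADAMTS or TIMP followed by a number alone, among array probe sets annotated with 1 gene symbol. This gave 64 of 19775 genes, namely 22 MMP, 20 ADAM, 18 ADAMTS and 4 TIMP genes. Among them, ADAM5 and ADAM6 are annotated as transcribed pseudogenes. Each gene was represented by its probe set with the highest mean over the 8 arrays. All values are the deposited log2 levels, in which a difference of 1 is a 2-fold change.

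The EMT group consisted of PC3-EMT1, PC3-EMT12 and PC3-EMT14, mesenchymal populations isolated from PC3-Epi cells after co-culture with IL4-treated human macrophages, and each was measured on 1 array. PC3-Epi, their parental epithelial population, was measured on 1 array and has no replicate. It is a luciferase-expressing subpopulation of PC3, a human prostate cancer line, that had been selected for bioluminescence and epithelial shape, so all 8 samples descend from cells with that vector. The sh4 group (PC3-EMT1-sh4 and PC3-EMT14-sh4) carried a lentiviral shRNA against ZEB1, a repressor of epithelial genes, and the Scr group (PC3-EMT1-Scr and PC3-EMT14-Scr) carried a scrambled shRNA. No source describes separate cultures of a line, so the p-values measure the spread between lines and arrays, which may be technical, and the number of arrays limits the precision. In whole cultures, fewer cells of one kind and less RNA per cell cannot be told apart.

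The 4 untransduced and the 4 transduced arrays were scaled apart. Their medians lay at 4.33 to 4.35 and at 6.19 to 6.23, and the highest of 27 bacterial control probe sets reached 4.56 and 6.00, so levels were compared only within a set of arrays. Of 10 epithelial markers tested, 7 fell in the EMT lines and none rose. The keratins KRT8 (-0.61), KRT18 (-0.48) and KRT19 (-0.30) did not pass and read 11.12 to 12.59 in the EMT lines. Of 7 mesenchymal markers tested, 4 rose and none fell, while FN1 (-0.37), SNAI2 (-0.11) and TWIST1 (0.325) did not pass. With sh4 no marker of either kind passed. By the 2-fold rule 4 epithelial markers were higher and 1 mesenchymal marker lower in both lines. The mesenchymal CDH2 (0.46), TWIST1 (0.35) and SNAI2 (0.20), however, averaged above Scr. CDH1, which encodes E-cadherin, read 3.07, 3.61 and 4.00 in the EMT lines (PC3-EMT1, then PC3-EMT12, then PC3-EMT14, as in every such list), against 11.31 in PC3-Epi, and 9.63 and 9.75 in the sh4 arrays of PC3-EMT1 and PC3-EMT14, against 5.61 and 5.89 in their Scr arrays. ZEB1, the target of the shRNA, read 6.81, 7.12 and 6.50 in the EMT lines against 3.08 in PC3-Epi, and 9.12 and 9.01 with sh4 against 9.87 and 10.08 with Scr. Of 18 macrophage markers on the array, 1 (LAPTM5) exceeded the bacterial controls in the EMT lines and in PC3-Epi. The medians of all probe sets lay under the highest control on the untransduced arrays and above it on the transduced ones. On the transduced arrays 5 or 6 markers exceeded it. LAPTM5, CSF1R, SIGLEC1, MARCO and AIF1 were above the controls on all 4 of these, and ITGAM on all but PC3-EMT14-sh4. CSF1R read 6.79 and 6.71 with sh4, against 6.71 and 6.76 with Scr. The other markers, among them CD14, CD163 and PTPRC, were under the controls on all 8 arrays. The prostate marker HOXB13 read 10.30, 10.67 and 10.23 in the EMT lines, against 8.07 in PC3-Epi, and rose (2.33, adjusted p = 0.00194), TMPRSS2 fell (-1.09, adjusted p = 0.00977), STEAP1 did not pass (-0.60, adjusted p = 0.111), and FOLH1 was under the bacterial controls on every array. The linear levels of the 18 markers summed to 243 to 250 in the EMT lines and to 227 in PC3-Epi, and to 1017 to 1046 with sh4 and 988 to 1018 with Scr.

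These enzymes use a zinc ion to cut proteins outside the cell. MMPs cleave collagens, gelatin and other matrix proteins, and several are anchored in the plasma membrane. ADAMs are membrane proteins, and the active ones release growth factors, cytokines and adhesion molecules from the cell surface, a process called shedding, whereas ADAMTS enzymes are secreted and trim procollagens or cleave proteoglycans. TIMPs bind the active site of these enzymes. The families are known for their part in tissue remodelling and in the invasion of carcinoma cells.

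Many members could not be told from background. On the untransduced arrays, 34 of 64 members lay above the highest bacterial control on all 4 arrays, 26 on none and 4 on some, and on the transduced arrays these numbers were 38, 22 and 4. All 4 TIMP genes were above this limit throughout. On all 8 arrays 21 members stayed under it, comprising 10 MMP, 6 ADAM (with the pseudogenes ADAM5 and ADAM6) and 5 ADAMTS genes. Among them were the gelatinase MMP2, the stromelysin MMP3, the collagenases MMP8 and MMP13, the matrilysins MMP7 and MMP26, ADAM2 and ADAM18, which are known from sperm, and the aggrecan-cleaving ADAMTS5. The share of all genes above the controls was not counted. On the untransduced arrays the medians of all probe sets (4.33 to 4.35) were themselves under the highest control (4.56). At least 1 untransduced array at log2 5 or above was found for 32 of 64 members and 11921 of 19775 genes. On the transduced arrays it was 51 of 64 and 16661 of 19775.

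On chromosome 11, 9 MMP members follow each other in the order MMP7, MMP20, MMP27, MMP8, MMP10, MMP1, MMP3, MMP12 and MMP13. Of these, MMP1 was above the bacterial controls on all 8 arrays, MMP10 on 1 array (PC3-EMT14-Scr), and the other 7 on none. Thus MMP1 was the only member of this stretch that could be read throughout, and its neighbour MMP10 was read on that 1 array alone.

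RefSeq promoter windows (build GRCh38.p14, 250 bases before to 50 after the start) were available here for 36 members, in 37 windows, and were searched on both strands for 3 motifs, whose matches can share at most 2 bases at their ends. TGANTCA, the letters of the AP-1 site known from MMP promoters, occurred in the windows of 4 members (MMP7, MMP10, MMP20 and ADAMTS12) and in 7.71% of all 35116 windows. AGGAAG, the PEA3 letters bound by ETS factors, occurred in 10 members and in 33.6% of all windows. CACCTG, the E-box letters bound by ZEB factors, occurred in 8 members (ADAM8, ADAM17, ADAM19, ADAM21, ADAM30, ADAMTS17, MMP15 and MMP26) and in 20.6% of all windows. Of the chromosome 11 stretch, MMP1, MMP3, MMP12 and MMP13 had no window, so these genes were not searched. The 120 bases before the start of the 3 MMP genes of this stretch found with the AP-1 letters are shown. Of these, MMP10 was read on 1 array and MMP7 and MMP20 on none. Capitals mark the AP-1 letters.

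MMP10 (chr11:102780629-102780748, minus strand): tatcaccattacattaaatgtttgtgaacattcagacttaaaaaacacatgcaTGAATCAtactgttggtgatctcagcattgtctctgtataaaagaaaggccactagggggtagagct
MMP7 (chr11:102530748-102530867, minus strand): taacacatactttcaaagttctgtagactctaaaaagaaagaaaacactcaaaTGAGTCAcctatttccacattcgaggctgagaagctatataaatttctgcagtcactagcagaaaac
MMP20 (chr11:102625333-102625452, minus strand): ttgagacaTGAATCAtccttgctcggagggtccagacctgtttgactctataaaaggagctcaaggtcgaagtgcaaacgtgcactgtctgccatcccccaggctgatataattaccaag

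Counted from the start of the gene, the AP-1 letters begin at position -67 in both MMP10 and MMP7 and at -112 in MMP20. The windows of these genes held 36.3%, 35.7% and 44.3% G and C, below the median of 58.7% over all windows.

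The same stretch is shown for 4 members that changed in the EMT lines, ADAMTS3, ADAMTS6 and ADAM10, which fell, and TIMP1, which rose. Capitals mark the PEA3 letters, which ADAM10 and TIMP1 hold in this stretch. None of the 3 motifs is in the window of ADAMTS3 or ADAMTS6.

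ADAMTS3 (chr4:72569222-72569341, minus strand): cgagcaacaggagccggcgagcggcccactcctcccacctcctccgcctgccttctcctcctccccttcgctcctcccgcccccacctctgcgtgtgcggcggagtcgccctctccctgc
ADAMTS6 (chr5:65481921-65482040, minus strand): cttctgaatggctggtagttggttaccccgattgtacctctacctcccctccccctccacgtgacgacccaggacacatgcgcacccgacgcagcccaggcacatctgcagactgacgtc
ADAM10 (chr15:58749708-58749827, minus strand): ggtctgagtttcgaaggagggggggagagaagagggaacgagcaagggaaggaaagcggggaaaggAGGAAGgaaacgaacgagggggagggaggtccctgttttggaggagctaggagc
TIMP1 (chrX:47582316-47582435, plus strand): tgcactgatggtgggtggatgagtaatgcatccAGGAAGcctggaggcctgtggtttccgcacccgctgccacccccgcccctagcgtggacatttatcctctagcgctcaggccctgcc

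A member entered a test where at least 1 array of the comparison was at log2 5 or above. In the first comparison, which asked how the mesenchymal lines differ from the epithelial cells they came from, 32 of 64 members were tested. In the EMT lines, 5 members rose (ADAMTS1, ADAM15, TIMP1, ADAM12 and MMP14) and 6 fell (ADAMTS3, MMP9, ADAMTS6, ADAMTS15, ADAM10 and ADAM9). The other 21 did not pass the adjusted p threshold of 0.05 in limma's moderated test, and 16 of the 32 had an unadjusted p under 0.05, as did 5325 of all 11921 genes tested. Over all genes tested, 13.9% rose and 15.4% fell, so 5 and 6 of 32 were close to the background. By the 2-fold rule, which asks for a 2-fold difference in the same direction in all 3 lines, 2 members were higher (ADAMTS1 and ADAM15), against 2.95% of all genes, and 5 were lower (ADAMTS3, MMP1, MMP9, ADAMTS6 and ADAM10), against 4.9% of all genes; these shares were not tested against each other. The median difference of the tested members was 0.13 and that of all genes tested 0.07.

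**Figure D1:**
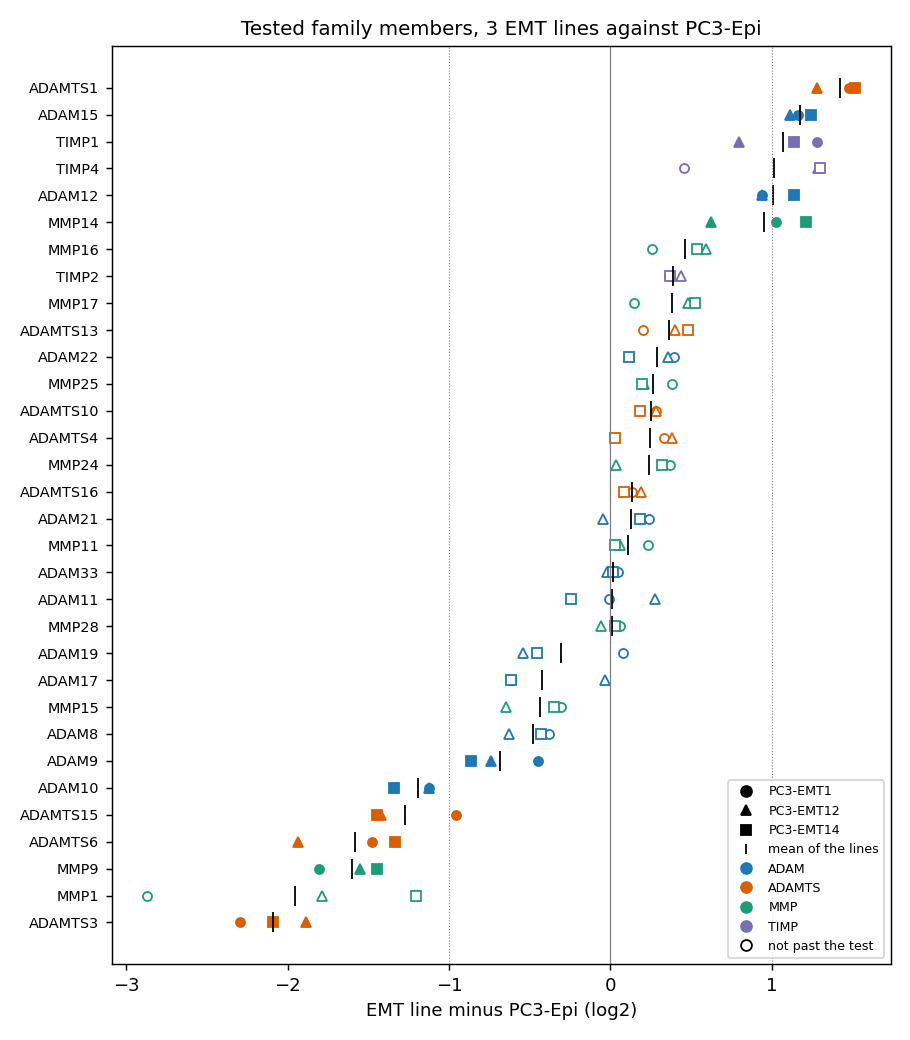
Difference from PC3-Epi (log2, x axis) of the 32 tested members in each EMT line (points), with the mean of the 3 lines (bars) and dotted lines at 2-fold. Filled points are the 11 members past the test, which run from -2.09 on average for ADAMTS3 to 1.42 for ADAMTS1. MMP1 has the widest spread between lines.

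Among the inhibitors, 1 of 3 tested TIMP genes rose. TIMP1, a soluble inhibitor of most secreted MMPs, read 12.37, 11.89 and 12.23 in the EMT lines, against 11.09 in PC3-Epi. All 3 lines lay above PC3-Epi, and the mean difference of 1.07 ± 0.21 (SE, n = 3 lines and 1 PC3-Epi array) is 2.10-fold (adjusted p = 0.0185). TIMP4 read 6.91, 7.74 and 7.75 in these lines, against 6.45 in PC3-Epi. All 3 lines were above PC3-Epi, but PC3-EMT1 stood nearer to it than the other two, and the mean difference of 1.01 ± 0.35 did not pass (adjusted p = 0.0784). This difference passed in 1 of 14 alternative settings, the one without PC3-EMT1, where it was 1.29. TIMP2, which besides inhibiting MMPs helps MMP14 to activate MMP2, read 11.84, 11.91 and 11.85 in the EMT lines, against 11.48 in PC3-Epi. This difference of 0.39 ± 0.14 did not pass (adjusted p = 0.0812), and all 3 probe sets of TIMP2 were on the same side. TIMP3, the inhibitor that binds to the matrix and also acts on ADAM17, read 4.89, 4.77 and 4.96 in the EMT lines, against 4.64 in PC3-Epi, and was too dim to be tested.

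Of the 10 tested MMP genes, 1 rose and 1 fell. MMP14, the membrane-type collagenase that is a main activator of MMP2, read 9.25, 8.85 and 9.44 in the EMT lines, against 8.23 in PC3-Epi. The lines were all above PC3-Epi, by 0.95 ± 0.24 (1.93-fold, adjusted p = 0.0359), and all 4 probe sets of MMP14 were on this side. The call was lost without PC3-EMT1 (adjusted p = 0.057) and without PC3-EMT14 (adjusted p = 0.0654). MMP2, which MMP14 activates, read 4.00, 3.97 and 3.86 in the EMT lines, against 4.09 in PC3-Epi, all under the bacterial controls.

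MMP9, the second gelatinase, read 5.40, 5.65 and 5.76 in the EMT lines, against 7.21 in PC3-Epi. Every line was at least 1.44 below PC3-Epi, and the mean difference was -1.60 ± 0.18 (3.04-fold lower, adjusted p = 0.00406). MMP1, the interstitial collagenase, read 5.62, 6.70 and 7.28 in the EMT lines, against 8.49 in PC3-Epi. All lines were more than 2-fold below PC3-Epi, but they differed among themselves by 1.66, and the mean difference of -1.95 ± 0.59 did not pass (adjusted p = 0.0529). It passed in 7 of 14 alternative settings, with adjusted p between 0.00882 and 0.0904 over them. The other membrane-anchored members did not pass. The mean difference was 0.46 for MMP16 (adjusted p = 0.104), 0.38 for MMP17 (adjusted p = 0.18) and -0.43 for MMP15 (adjusted p = 0.121).

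Of 11 tested ADAM genes, 2 rose and 2 fell. ADAM15, a membrane-bound ADAM with an integrin-binding disintegrin domain, read 10.27, 10.22 and 10.36 in the EMT lines, against 9.11 in PC3-Epi. The lines spanned 0.13 and lay 1.17 ± 0.14 above PC3-Epi (2.25-fold, adjusted p = 0.00475), and both probe sets of ADAM15 were on this side. ADAM12, an ADAM known to shed EGF receptor ligands, read 6.85, 6.85 and 7.05 in the EMT lines, against 5.91 in PC3-Epi. This was a difference of 1.01 ± 0.16 (2.01-fold, adjusted p = 0.00928), and all 5 probe sets of ADAM12 were above PC3-Epi.

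ADAM10, which cleaves Notch receptors, cadherins and other surface proteins, read 7.80, 7.80 and 7.58 in the EMT lines, against 8.92 in PC3-Epi. It fell by 1.19 ± 0.16 on the log2 scale (2.29-fold lower, adjusted p = 0.00614), with all 3 probe sets on this side. ADAM9 read 9.70, 9.41 and 9.29 in the EMT lines, against 10.15 in PC3-Epi. The difference of -0.69 ± 0.20 was the least certain of the calls (adjusted p = 0.0477) and passed in 9 of 14 alternatives. It was lost without PC3-EMT12 (adjusted p = 0.0773), without PC3-EMT14 (adjusted p = 0.129), with no filter (adjusted p = 0.0572), after median centring (adjusted p = 0.0544) and with the mean of its probe sets (-0.44, adjusted p = 0.128). ADAM17, which releases TNF and several EGF receptor ligands, read 8.71, 9.29 and 8.71 in the EMT lines, against 9.32 in PC3-Epi, so PC3-EMT12 was at the level of PC3-Epi and the other two were below it (-0.42 ± 0.26, adjusted p = 0.26). ADAM8 read 7.83, 7.58 and 7.79 in the EMT lines, against 8.21 in PC3-Epi, and did not pass (-0.48 ± 0.16, adjusted p = 0.0715).

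Of 8 tested ADAMTS genes, 1 rose and 3 fell. ADAMTS1, a secreted protease of the proteoglycans aggrecan and versican, read 7.80, 7.60 and 7.83 in the EMT lines, against 6.32 in PC3-Epi. All lines were more than 2-fold above PC3-Epi, by 1.42 ± 0.16 on average (2.68-fold, adjusted p = 0.0038), and both probe sets were on this side. ADAMTS15, another protease of these proteoglycans, read 5.69, 5.23 and 5.20 in the EMT lines, against 6.65 in PC3-Epi. It fell by 1.27 ± 0.23 on the log2 scale (2.42-fold lower, adjusted p = 0.014), whereas its second probe set was under the bacterial controls and averaged 0.10 above PC3-Epi.

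ADAMTS3 and ADAMTS6 were the ADAMTS members that passed both the test and the 2-fold rule downward. ADAMTS3, which removes the N-terminal propeptide of procollagens and is needed to process VEGFC, read 5.00, 5.41 and 5.21 in the EMT lines, against 7.30 in PC3-Epi. The differences of the lines ran from -2.29 to -1.89, and it fell by 2.09 ± 0.19 on the log2 scale (4.26-fold lower, adjusted p = 0.002). ADAMTS6 read 5.04, 4.58 and 5.19 in the EMT lines, against 6.52 in PC3-Epi. It fell by 1.58 ± 0.25 on the log2 scale (3.00-fold lower, adjusted p = 0.00996). PC3-EMT12 was just above the highest bacterial control of 4.56. The other probe sets of ADAMTS6 were under the controls and averaged -0.62 and 0.03 from PC3-Epi. ADAMTS10, the closest relative of ADAMTS6, read 6.13, 6.13 and 6.03 in the EMT lines, against 5.85 in PC3-Epi, and did not pass (adjusted p = 0.217).

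**Figure D2:**
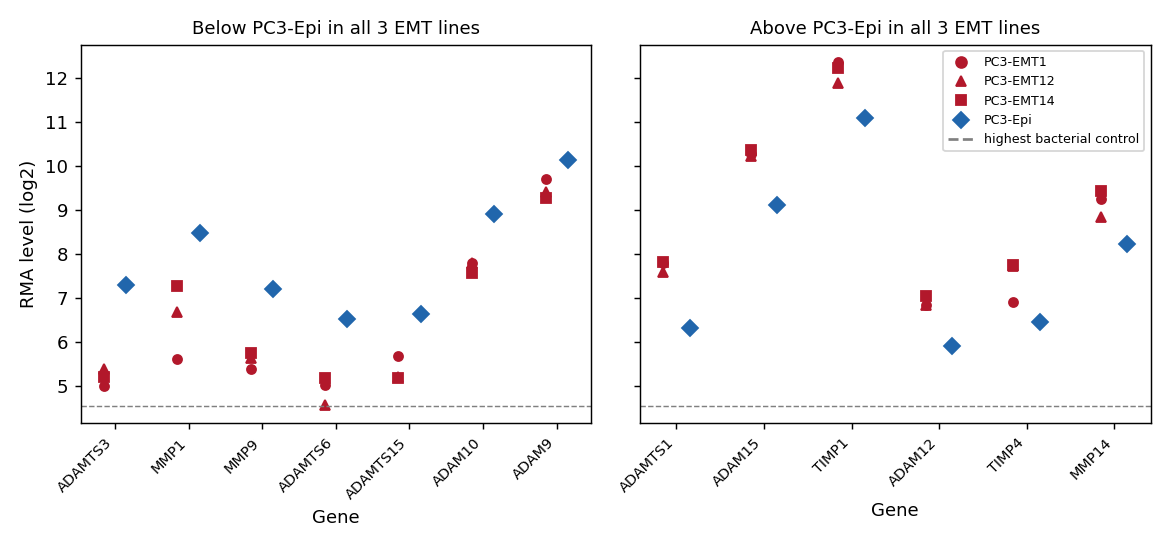
Array levels (log2 RMA value, y axis) in the 3 EMT lines (red) and in PC3-Epi (blue) of members that passed the test or the 2-fold rule, and of TIMP4. Each gene on the left has all 3 lines below PC3-Epi and each on the right all 3 above it. MMP1 and TIMP4 did not pass the test. The dashed line at 4.56 is the highest bacterial control.

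Variation between the lines was examined in PC3-EMT1 and PC3-EMT14, which were measured untransduced, with Scr and with sh4. The 3 pairs are states of the same 2 lines and not independent lines. Of 51 members tested, 2 were lower in PC3-EMT1 (MMP1 and TIMP4), none was higher and 13 had an unadjusted p under 0.05, as did 2717 of all 16662 genes tested. Over all genes, 1.52% were lower and 0.3% higher in PC3-EMT1.

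MMP1 read 5.62 in PC3-EMT1 against 7.28 in PC3-EMT14 without transduction, 7.69 against 9.75 with Scr, and 7.10 against 9.23 with sh4. PC3-EMT1 was more than 2-fold lower in every pair, with a mean difference of -1.95 ± 0.12 (3.87-fold lower, adjusted p = 0.00242), and MMP1 was the only member past the 2-fold rule here, which 0.168% of all genes passed downward and 0.03% upward. TIMP4 read 6.91 in PC3-EMT1 against 7.75 in PC3-EMT14 without transduction, 6.62 against 7.70 with Scr, and 6.52 against 7.73 with sh4. It too was lower in PC3-EMT1 in all 3 pairs (-1.04 ± 0.11, 2.06-fold lower, adjusted p = 0.0079). Both calls were lost on the 4 transduced arrays alone, where the differences were -2.10 and -1.14 (adjusted p = 0.133 and 0.173).

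MMP10, a stromelysin and the neighbour of MMP1, read 3.47 in PC3-EMT1 against 3.83 in PC3-EMT14 without transduction, 4.19 against 6.54 with Scr, and 4.17 against 5.21 with sh4. The sides were those of MMP1, but only the Scr array of PC3-EMT14 was above the bacterial controls so the size of the difference was not measured, and it did not pass (adjusted p = 0.103). ADAMTS6 (-0.57) and ADAMTS3 (-0.50) followed in size and did not pass either (adjusted p = 0.166 and 0.123). The inhibitors TIMP1 and TIMP2 differed between the lines by 0.06 ± 0.10 and 0.05 ± 0.09. MMP10 was chosen for this description after its values were seen.

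**Figure D3:**
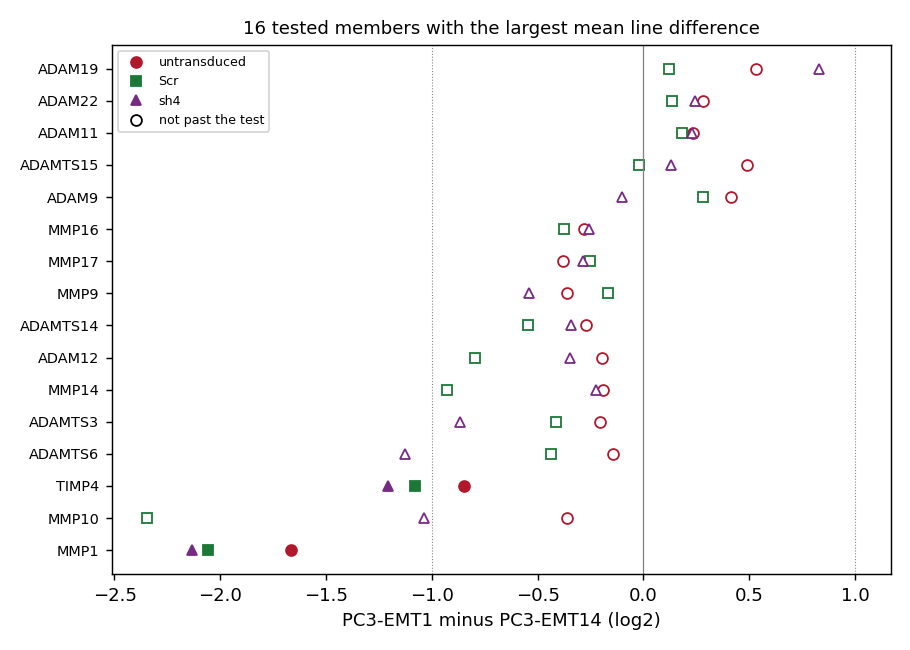
Difference of PC3-EMT1 minus PC3-EMT14 (log2, x axis) in the untransduced, Scr and sh4 pairs for the 16 tested members with the largest mean difference. MMP1 and TIMP4 (filled) passed the test, and MMP1 lay beyond the dotted 2-fold line in all 3 pairs. MMP10 was above the bacterial controls on 1 array alone.

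The comparison of sh4 with Scr asked which of these genes move when ZEB1 is silenced in the mesenchymal lines. Of 51 members tested, none passed limma's test and none was 2-fold higher or lower in both lines, while 9 had an unadjusted p under 0.05. No gene of the 16661 tested passed in either direction (0% higher and 0% lower), 2499 had an unadjusted p under 0.05, and the smallest adjusted p was 0.0512. By the 2-fold rule, 0.276% of all genes were higher and 0.132% lower. When the untransduced arrays of the same 2 lines were added to the fit, 196 genes passed, and among them 1 member, MMP16. The members named from here on beyond those above were chosen after their values were seen, by an unadjusted p under 0.05 or by their difference between lines.

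MMP16, a membrane-type MMP, read 7.85 and 8.11 in the sh4 arrays of PC3-EMT1 and PC3-EMT14, against 8.66 and 9.04 in their Scr arrays. Both lines were lower with sh4, by 0.81 and 0.93, and the mean of -0.87 ± 0.11 (1.83-fold lower) had an adjusted p of 0.224 on the 4 arrays and of 0.0235 on 6 arrays. Leaving out 1 transduced array at a time in the fit of 6 arrays gave adjusted p between 0.0157 and 0.122, and the call was lost without the sh4 array of PC3-EMT14. All 5 probe sets of MMP16 averaged lower with sh4, but to unlike extents. The only other one above the bacterial controls on all 4 transduced arrays read 6.19 and 6.09 with sh4, against 6.23 and 6.35 with Scr (mean difference -0.15), and another read 5.51 and 5.43 with sh4, under the controls, against 6.34 and 6.54 with Scr. Without transduction MMP16 read 6.17, 6.51 and 6.45 in the EMT lines, against 5.92 in PC3-Epi.

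ADAM8, known from leukocytes and from invasive carcinoma cells, read 9.73 and 10.03 with sh4, against 9.08 and 9.30 with Scr. The lines agreed in direction and size (0.65 and 0.73), with a mean of 0.69 ± 0.11 (adjusted p = 0.238), while its second probe set gave 6.57 and 6.95 with sh4, against 6.76 and 6.89 with Scr. The macrophage markers summed to 1046 and 1017 on these sh4 arrays, against 1018 and 988 on the Scr arrays, and their part in the values of ADAM8 was not tested.

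ADAMTS6 read 6.63 and 7.76 with sh4, against 6.12 and 6.56 with Scr. The difference was 0.51 in PC3-EMT1 and 1.20 in PC3-EMT14, and their mean of 0.85 ± 0.20 did not pass (adjusted p = 0.281). ADAMTS3 read 7.27 and 8.14 with sh4, against 6.94 and 7.35 with Scr, a mean of 0.56 ± 0.15 (adjusted p = 0.295). In both genes PC3-EMT14 had the larger difference. MMP15, a membrane-type MMP, read 7.28 and 7.29 with sh4, against 7.01 and 6.60 with Scr (0.48 ± 0.15, adjusted p = 0.309), while its second probe set read 6.76 and 6.59 with sh4, against 6.76 and 6.71 with Scr. ADAM20 and ADAM21, neighbouring genes of similar sequence known from testis, averaged 0.42 and 0.41 above Scr (adjusted p = 0.283 and 0.311). ADAM20 read 6.67 and 6.46 with sh4, against 6.21 and 6.08 with Scr, near the highest bacterial control of 6.00. ADAM21 read 6.91 and 6.67 against 6.35 and 6.43. Their second probe sets, under the controls, averaged -0.14 for ADAM20 and 0.45 for ADAM21. Cross-hybridization between these 2 genes was not tested.

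MMP1 read 7.10 and 9.23 with sh4, against 7.69 and 9.75 with Scr. It was lower with sh4 in both lines (-0.55 ± 0.11, adjusted p = 0.261), and this difference was smaller than that between the lines. TIMP1 read 12.74 and 12.62 with sh4, against 12.98 and 13.07 with Scr (-0.35 ± 0.12, adjusted p = 0.32). The remaining inhibitors differed less. TIMP2 read 12.16 and 12.07 with sh4, against 12.31 and 12.26 with Scr, TIMP3 6.97 and 6.81 against 6.90 and 6.87, and TIMP4 6.52 and 7.73 against 6.62 and 7.70.

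MMP10 read 4.17 and 5.21 with sh4, against 4.19 and 6.54 with Scr, and of these the Scr array of PC3-EMT14 alone was above the bacterial controls, so that no size of difference was measured. ADAM19, which sheds neuregulins, read 10.43 and 9.60 with sh4, against 10.63 and 10.51 with Scr, a difference of -0.20 in PC3-EMT1 and -0.91 in PC3-EMT14. Neither passed (adjusted p = 0.42 and 0.34), and whether the lines differ was not tested.

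**Figure D4:**
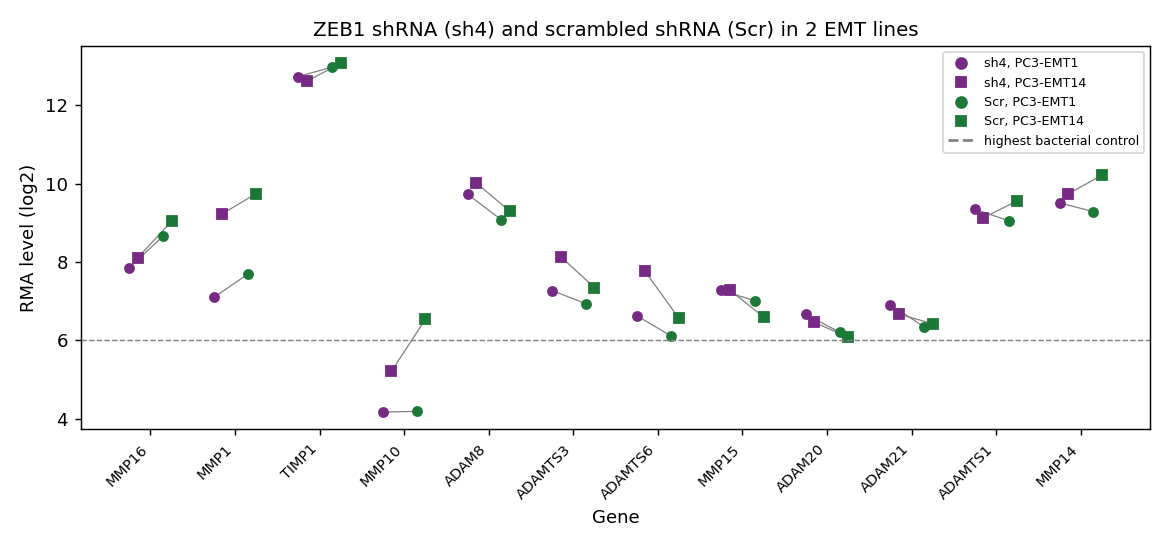
Array levels (log2 RMA value, y axis) with sh4 (purple) and Scr (green) in PC3-EMT1 (circles) and PC3-EMT14 (squares), with a line joining the 2 arrays of each cell line, for 12 members. MMP16, MMP1 and TIMP1 were lower and ADAM8, ADAMTS3, ADAMTS6, MMP15, ADAM20 and ADAM21 higher with sh4 in both lines, and none passed the test on the 4 arrays. The dashed line at 6.00 is the highest bacterial control.

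Set side by side, the comparison of EMT with PC3-Epi and that of sh4 with Scr share no array but share 2 cell lines. Of the 12 members past the test or the 2-fold rule in the EMT lines, none passed the 2-fold rule with sh4. Judged by the probe set used for each gene, 4 of the 12 (ADAMTS3, ADAMTS6, ADAMTS15 and TIMP1) lay on the opposite side with sh4 in both lines. Another 1 (MMP1) lay on the same side in both, and 7 had the 2 lines on different sides. Of all 3503 genes past the same rule in the EMT lines, 46.5% lay on the opposite side in both lines, 21.1% on the same side and 32.4% on different sides, so 4 of 12 was not above the background. ADAMTS15 read 7.17 and 7.04 with sh4, against 6.85 and 6.87 with Scr (0.24 ± 0.11, adjusted p = 0.39).

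The other 7 members had passed the test in the EMT lines. MMP14 read 9.51 and 9.74 with sh4, against 9.29 and 10.22 with Scr. ADAMTS1 read 9.34 and 9.13 with sh4, against 9.06 and 9.56 with Scr. In these 2 genes PC3-EMT1 was higher and PC3-EMT14 lower with sh4. MMP9 read 6.64 and 7.18 with sh4, against 6.74 and 6.91 with Scr. ADAM10 read 10.21 and 10.29 with sh4, against 10.38 and 10.29 with Scr, and ADAM15 read 10.30 and 10.57 against 10.33 and 10.43. ADAM9 read 11.56 and 11.66 with sh4, against 11.89 and 11.61 with Scr. Another ADAM9 probe set, above the bacterial controls on these arrays, read 7.82 and 6.55 against 7.70 and 7.87. ADAM12 read 7.21 and 7.55 with sh4, against 7.21 and 8.00 with Scr, and its PC3-EMT1 difference was 0.0009. Its other probe sets above the controls on these arrays gave differences of -0.33 and -0.92, -0.31 and -0.91, and 0.15 and -0.06. By the probe sets used, ADAM10 and ADAM15 thus stayed within 0.18 of Scr in each line, and their differences of -0.09 ± 0.11 and 0.06 ± 0.11 did not pass. The second probe set of ADAM15 read 8.68 and 8.86 with sh4, against 8.96 and 9.04 with Scr, lower in both lines. Over the 15 members past a rule in any comparison or of the TIMP family, 13 other probe sets exceeded the bacterial controls on a transduced array. Of these, 9 averaged on the side of the probe set used.

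Genes that act with these enzymes were described by lists, whose counts in the EMT lines stand beside the 13.9% of all genes that rose and the 15.4% that fell. Of 20 tested activators and regulators, 7 rose in the EMT lines and none fell, with a median of 0.43 against 0.07 over all genes tested. PLAT, tissue plasminogen activator, which makes plasmin, read 12.92, 12.57 and 12.73 in the EMT lines, against 7.41 in PC3-Epi (5.33 ± 0.18, adjusted p = 0.000133). TFPI2, an inhibitor of plasmin and other serine proteases, rose by 1.85, and PLAUR, the urokinase receptor, by 1.12. PCSK5, a proprotein convertase of the furin type, rose too (adjusted p = 0.0132), with 4.29, 5.08 and 5.01 in the EMT lines, against 2.96 in PC3-Epi, but PC3-EMT1 and PC3-Epi were under the bacterial controls, so the size is not exact. PCSK5 was also lower in PC3-EMT1 than in PC3-EMT14 (-1.56 ± 0.24, adjusted p = 0.0305), with the same limit on the untransduced PC3-EMT1 array.

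Of 22 tested membrane proteins known to be shed, 6 rose and 2 fell in the EMT lines. The neuregulin NRG2 read 7.18, 7.79 and 7.73 in the EMT lines, against 4.05 in PC3-Epi (3.52 ± 0.27, adjusted p = 0.00112), where it was under the bacterial controls, so the size is not exact. IL6R rose by 0.92. The EGF receptor ligands BTC and TGFA fell by 0.92 and 0.88. NRG2 and MET were lower in PC3-EMT1 than in PC3-EMT14, with differences of -0.63 and -0.49 (adjusted p = 0.0258 and 0.0489).

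Of 14 tested matrix substrates, 3 rose and 3 fell. VCAN, the proteoglycan versican that ADAMTS1 and ADAMTS15 cleave, read 2.92, 2.98 and 3.46 in the EMT lines, against 6.81 in PC3-Epi (-3.69 ± 0.24, adjusted p = 0.000742), and was under the bacterial controls in all 3 EMT lines, so that this size is not exact either. THBS1, thrombospondin 1, fell by 2.77, while the basement membrane proteoglycan HSPG2 rose by 1.45 and the collagen COL5A1 by 1.06, from a PC3-Epi level of 4.50 that was under the controls. Of 5 tested relatives of the ADAMTS and astacin proteases, 1 rose, PCOLCE2, an enhancer of procollagen C-terminal processing, with a difference of 1.84 ± 0.20 (adjusted p = 0.00358). PCOLCE and PCOLCE2 were both lower in PC3-EMT1 than in PC3-EMT14 (-0.70 and -0.53, adjusted p = 0.0366 and 0.0451).

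Of 14 tested transcription factors known to act on MMP promoters, 3 rose and 1 fell in the EMT lines. The AP-1 subunit JUN rose by 0.62, the ETS factor ETV5 by 1.02 and the NF-kB subunit RELA by 0.59, while the epithelial ETS factor ELF3 fell by 1.34. ETS1 was lower in PC3-EMT1 than in PC3-EMT14 (-0.89 ± 0.12, adjusted p = 0.0237). With sh4 against Scr, no gene of these 5 lists passed the test, while 12 of 22 tested matrix substrates had an unadjusted p under 0.05, the most of these lists, against 2499 of 16661 over all genes. The 12 did not share a direction. FN1, HSPG2, NID1, COL4A1, COL4A2 and COL5A1 averaged below Scr, and BGN, COL1A2, DCN, LAMB3, NCAN and VCAN above it. COL1A2 and NCAN were under the bacterial controls on all 4 transduced arrays. VCAN was under them on all but the sh4 array of PC3-EMT1, BGN on both Scr arrays and DCN on the Scr array of PC3-EMT14. The sizes for these genes are thus not exact. LAMB3 and all the genes that averaged below Scr were above the controls on all 4 arrays.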

How the data were processed

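RNA of 8 samples was hybridized to Affymetrix HG-U133 Plus 2.0 arrays (54675 probe sets). The authors made log2 values by RMA with the affy package (versions not given in the sources used here), and these deposited values were used unchanged. RMA limits what a dim probe set can show, and the untransduced and transduced arrays were scaled apart. Probe sets with 1 symbol (41091) gave 19775 genes.

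Differences were fitted in R 4.3.3 with limma 3.58.1 (lmFit, eBayes) and adjusted by Benjamini-Hochberg over all genes with at least 1 array at log2 5 or above. EMT against PC3-Epi used 4 arrays, with the spread of the single PC3-Epi array taken to equal that of the EMT lines. sh4 against Scr used the 4 transduced arrays with the cell line, given by the replicate number in the labels, as a block, since both arrays of a pair come from 1 line. PC3-EMT1 against PC3-EMT14 used 6 arrays with the state as a block. All 3 fits were tested on simulated data.

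The members and lists were chosen with earlier results of these data known. The naming rule gave in full the members past the test or the 2-fold rule in any comparison and all TIMP genes, and of each list the 4 largest differences past the test. Alternatives changed the filter, probe set, normalization, low values, fold limit, variance prior, block and arrays.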

Additional observations from a re-analysis of the deposited data

Results flagged for a closer look

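For ADAMTS1 and MMP14, neither of which passed the test (adjusted p = 0.89 and 0.789), the values with sh4 lay on opposite sides of Scr in the 2 cell lines. For ADAMTS1, sh4 minus Scr was 0.2883 in PC3-EMT1 and -0.4316 in PC3-EMT14. For MMP14 it was 0.2229 in PC3-EMT1 and -0.4807 in PC3-EMT14, and all 4 probe sets of MMP14 averaged below 0. With 1 pair of arrays per line, the difference between the lines was not tested.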

How the results depend on the processing

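Counts are given for alternatives that moved them by over 1.5 times, and the cause was not tested. In EMT against PC3-Epi, 7 members were past the fold rule, 4 with the mean of probe sets, 11 at 1.5-fold and 1 at 3-fold. Genes past the test numbered 3496, and 1844 to 4324 when 1 EMT line was left out (1844 without PC3-EMT14). In sh4 against Scr, no gene passed, but 4 did with a filter at log2 7, 4 with a filter at the highest bacterial control, 15 with the mean of probe sets, 17 after median centring, 51 after quantile normalization, 62 after cyclic loess, 4 with 32 added, 2 with a trend in eBayes and 196 with 6 arrays, where leaving out 1 array gave 42 to 649 genes (217 without the sh4 array of PC3-EMT1, 228 without the Scr array of PC3-EMT14) and 0 to 3 members, against 1 member with all 6. Without the replicate block, 1 gene and no member passed. As no member passed with the block either, there was no call to lose, and this does not show what the pairing by line contributes. At 1.5-fold, 2 members passed the fold rule. One pair alone (without replicate 1 or without replicate 14) gave 2 and 0. In PC3-EMT1 against PC3-EMT14, 304 genes and 2 members passed, with 191 genes by the mean of probe sets, 117 with 32 added, 0 genes and 0 members with no state block or on the 4 transduced arrays only, and 0 to 262 genes and 0 to 3 members when 1 pair was left out (0 genes without the untransduced pair, 173 without the sh4 pair). The fold rule gave 1 member, 2 at 1.5-fold, 3 on the 4 transduced arrays and 1 to 3 when 1 pair was left out.

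ADAMTS1, ADAMTS3, ADAMTS6, ADAMTS15, ADAM10, ADAM12, ADAM15, MMP9 and TIMP1 passed in each of the 12 to 14 alternatives of EMT against PC3-Epi in which they were tested. TIMP2 passed in 3 of 14. Small differences of dim members are limited by the background signal.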
